A study of Homo sapiens with 4 samples.

Results

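The S100 proteins are a family of small calcium-binding proteins, and 10 of their genes were followed here through the GALNT3 and GALNT6 depletion arrays: S100A2, S100A3, S100A4, S100A6, S100A10, S100A11, S100A13, S100A14, S100A16 and S100P. The 10 are a chosen list and not every S100 gene on the array, as 8 other S100 genes were tested too. A member was read by the non-control probes that carried its symbol in all 4 scanner files. The family was chosen by measured values. The reason was that S100A6 stood among the highest log2 ratios on the arrays that bear the label GALNT3/T6 KO (the GALNT3/T6-labelled arrays). The 10 members, read by 11 probes, belong to the 27225 genes tested. GALNT3 KO against Ctrl was tested for the members. On the GALNT3/T6-labelled arrays, and for differences built on them, the same fit ran over all genes, but the members' ratios and counts of calls there are given as a description, with no p, and nothing is read from them.

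The arrays asked how loss of the mucin-type O-glycosylation enzyme GALNT3, alone or with suppression of GALNT6, altered gene expression in A2780s, an established human epithelial ovarian cancer (EOC) cell line. Each of the 4 2-colour arrays carried RNA of 1 KO clone against RNA of mock-transfected A2780s Ctrl cells. CRISPR/Cas9 and a repair plasmid with puromycin selection gave the 2 GALNT3 KO clones. The 2 GALNT3/T6 KO clones came from GALNT3 KO clones that also received lentiviral shRNA against GALNT6, so that lentiviral transduction goes together with that group. The labels give Cy3 to Ctrl and Cy5 to the KO clone on each of the 4 arrays, without a dye swap, so a dye effect does not cancel, and no Ctrl sample gave Ctrl a spread of its own. Each value is a log2 ratio of KO over Ctrl, so that 1 on this scale is a doubling. A gene was called when limma's adjusted p, over all genes tested, was at most 0.05. Standard errors are limma's, with each gene's spread pooled over all 4 arrays and drawn towards that of all genes, and n counts the arrays averaged. They do not measure the spread of 1 group's clones alone.

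S100 proteins carry a pair of EF-hand calcium-binding loops and mostly work as dimers that open a binding face when calcium enters the cell. Inside the cell they bind annexins, cytoskeletal proteins and regulators of protein turnover, and some are secreted and act on receptors such as RAGE, the product of AGER. Most of their genes lie together on the long arm of human chromosome 1, and several are known in carcinomas, ovarian carcinoma among them, for their links with migration and invasion.

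GALNT3 itself went against its label. Neither channel of the GALNT3 KO arrays was well above background for it, so no ratio is given there, but on the GALNT3/T6-labelled arrays its log2 ratios were 4.80 and 5.08. GALNT6 stood at -0.47 and -0.38 in GALNT3 KO (limma adjusted p = 0.0446) and at -0.66 and -0.69 on the GALNT3/T6-labelled arrays (limma adjusted p = 0.00335). The GALNT6 call in GALNT3 KO was lost with Agilent's own log ratio, the deposited table, median centring and the replicate number as a block. Leaving out either GALNT3 KO array ended every call in GALNT3 KO, so those fits say nothing particular to a gene. All 4 arrays lay on 1 slide, and per channel 86.9% to 93.8% of their probe spots stood well above background, with 0 saturated. All 9 ovarian epithelial markers examined were well above background in both channels of every array. So were 8 of 9 immune, endothelial and fibroblast markers, with PECAM1 the exception, so this criterion alone did not separate the cell types. On the GALNT3/T6-labelled arrays, 7 of the 9 epithelial markers were called higher, with log2 ratios of 5.68 for KRT18 and 4.81 for KRT19, and 0 were called in GALNT3 KO, where 2 had an unadjusted limma p of at most 0.05. Of the 8 immune, endothelial and fibroblast markers tested, 3 were called higher on the GALNT3/T6-labelled arrays (COL1A1 at 1.98, CD68 at 1.70 and VWF at 1.32) and 3 lower (LUM at -1.19, CD3E at -0.36 and COL1A2 at -0.32). In GALNT3 KO, COL1A2 was called higher at 0.62 and LUM lower at -1.07. These are values of the brightest probes, and second probes did not all follow. In GALNT3 KO that of LUM read 0.12 and 0.34 and that of COL1A2 0.01 and -0.05. On the GALNT3/T6-labelled arrays that of LUM read -0.00348 and 0.09 and that of VWF -0.09 and 0.02. Those of CD3E (-0.08 and -0.31) and COL1A2 (-0.32 and -0.12) stayed below Ctrl there. Among all genes, 24.8% were called higher and 23.1% lower on the GALNT3/T6-labelled arrays. The part of these shifts in the S100 values was not tested.

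Among the 10 members, 2 were called higher and 0 lower in GALNT3 KO, beside 4.69% and 6.34% of all genes tested. As RNA of whole cultures was read, fewer cells that express a gene and less of its RNA per cell cannot be told apart. S100A10 and S100A11 were those called. An unadjusted limma p of at most 0.05 was met by 5 members and by 9680 of the 27225 genes. In the second group, the GALNT3/T6-labelled arrays, 7 members were called higher and 2 lower, beside 24.8% and 23.1% of all genes. Between the groups, 5 members were called higher on the GALNT3/T6-labelled arrays and 1 lower, beside 11.8% of all genes in each direction (23.7% in either). Both of these comparisons hold the values by which the family was chosen, so neither pair of counts says anything of the members against other genes. The median log2 ratio of the members was 0.10 in GALNT3 KO and 1.62 on the GALNT3/T6-labelled arrays, where the medians of all genes were 0.02 and 0.03. Of the 10, 7 lay above 0 in the second group, and S100A4, S100A13 and S100A14 lay below it.

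**Figure D1:**
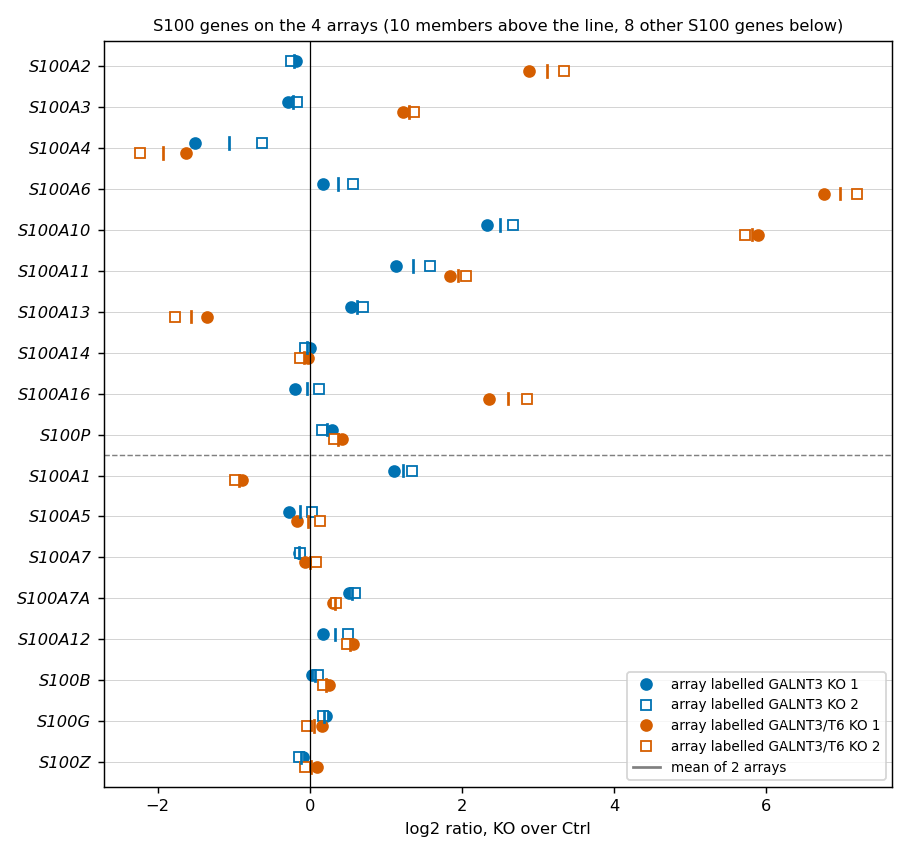
Log2 ratio of KO over Ctrl for each S100 gene tested on each of the 4 arrays, with a bar at the mean of the 2 arrays of a group. The 10 members stand above the dashed line and 8 other S100 genes below it; S100A6 and S100A10 lie farthest to the right on the GALNT3/T6-labelled arrays, and S100A10 lies to the right in GALNT3 KO too.

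S100A6, or calcyclin, is a growth-associated member that binds the ubiquitin-pathway adaptor CACYBP. The S100A6 log2 ratios were 0.18 and 0.57 in GALNT3 KO and 6.76 and 7.19 on the GALNT3/T6-labelled arrays. Both arrays of the second group lay far above both of the first. The GALNT3 KO mean of 0.37 (standard error 0.16, n = 2) was not called (limma adjusted p = 0.166), whereas the mean on the GALNT3/T6-labelled arrays was 6.97 (standard error 0.16, n = 2), or 126-fold. Only 1 of the 27225 genes had a higher mean there, which put S100A6 at rank 2. That direction takes the dyes as the labels give them, and with the dyes exchanged the same ratios would put S100A6 126-fold below Ctrl, at rank 2 from the lowest. Its probe, shown because the largest ratio of the family rests on it alone, has 60 bases but spans chr1:153507255-153507685 (hg19, minus strand), that is 431 bases of genome, so it reads across a splice junction.

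S100A6 probe: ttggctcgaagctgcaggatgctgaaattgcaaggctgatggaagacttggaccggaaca

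Both dyes contributed to the S100A6 values. After normalization between arrays the Ctrl channel gave log2 signals of 8.56 and 8.03 on the GALNT3 KO arrays, but 12.35 and 11.48 on the GALNT3/T6-labelled arrays. The KO channel gave 8.74 and 8.60 against 19.10 and 18.67. Ctrl was thus brighter by 3.62 on the log2 scale where the KO channel was brighter by 10.22. On the scanner's scale before any correction, Ctrl read 332 and 342 on the GALNT3 KO arrays against 6195 and 3318 on the other arrays. The part of this Ctrl shift in the ratio was not tested. S100A6 remained uncalled in GALNT3 KO in the fits with all 4 arrays, and was called there (adjusted p = 0.0377) when the spread came from the GALNT3 KO arrays alone.

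**Figure D2:**
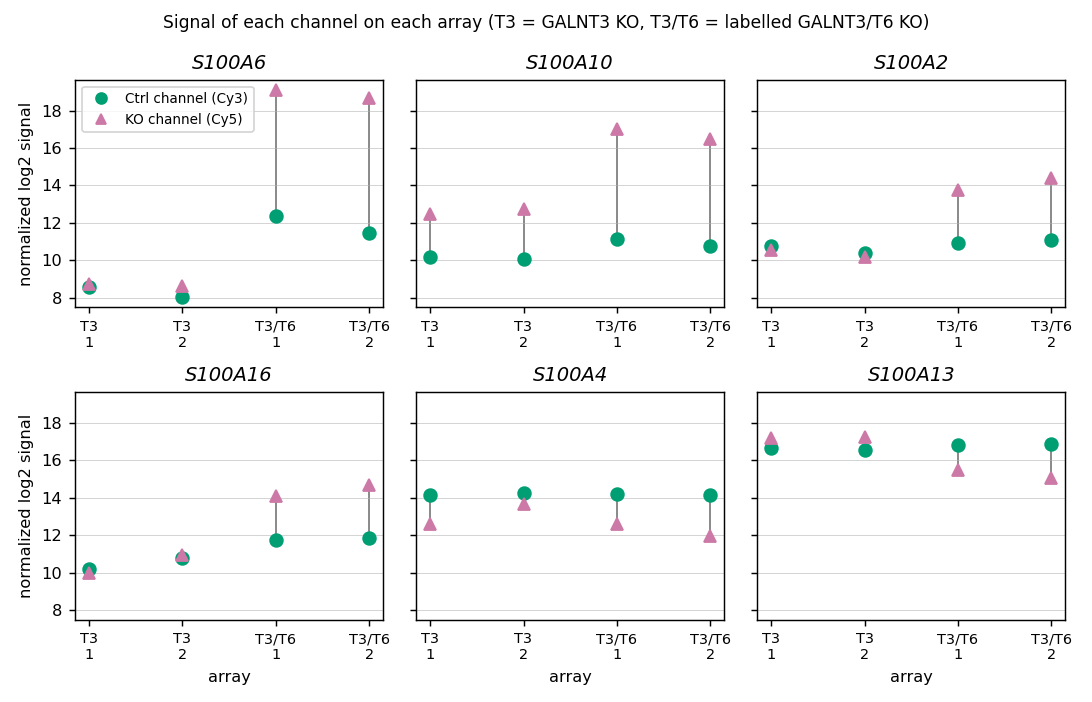
Normalized log2 signal of the Ctrl channel (circles) and the KO channel (triangles) on each array for 6 members, with a line joining the channels of an array. For S100A6 the Ctrl circles rise from 8.56 and 8.03 to 12.35 and 11.48 between the groups; for S100A4 the circles stay between 14.13 and 14.28 and the triangles lie below them.

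S100A10 is unusual in the family because it needs no calcium, and it joins annexin A2 in a complex that holds plasminogen at the cell surface. Its log2 ratios were 2.33 and 2.67 in GALNT3 KO and 5.90 and 5.72 on the GALNT3/T6-labelled arrays. All 4 arrays stood above Ctrl, and the groups did not overlap. In GALNT3 KO the mean of 2.50 (standard error 0.12, n = 2; 5.67-fold) was called (limma adjusted p = 0.00566) and ranked 20 of 27225 genes. The second group averaged 5.81, or 56.2-fold, at rank 13. Ctrl log2 signals were 10.15 and 10.09 on the GALNT3 KO arrays and 11.13 and 10.77 on the others, a shift of 0.83 whose part in the second value was not tested. Without GALNT3 KO replicate 1 the value was 2.67, and without replicate 2 it was 2.33, in fits that called no gene of the whole table.

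S100A11, or calgizzarin, binds annexin A1 and is known in membrane repair and in growth control of epithelial cells. It gave log2 ratios of 1.13 and 1.58 in GALNT3 KO and of 1.84 and 2.06 on the GALNT3/T6-labelled arrays. Every array lay above Ctrl, with the second group above the first. The GALNT3 KO mean was 1.35 (standard error 0.14, n = 2; 2.56-fold) with a limma adjusted p of 0.0200, and the other group's mean was 1.95. A second, adjacent probe of S100A11 read 1.19 and 1.25 in GALNT3 KO and 2.07 and 2.34 on the other arrays. RefSeq lists 10 pseudogenes of S100A11, so part of the signal may come from near-identical copies, which was not tested. The replicate number as a block ended the call (adjusted p = 0.0601).

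**Figure D3:**
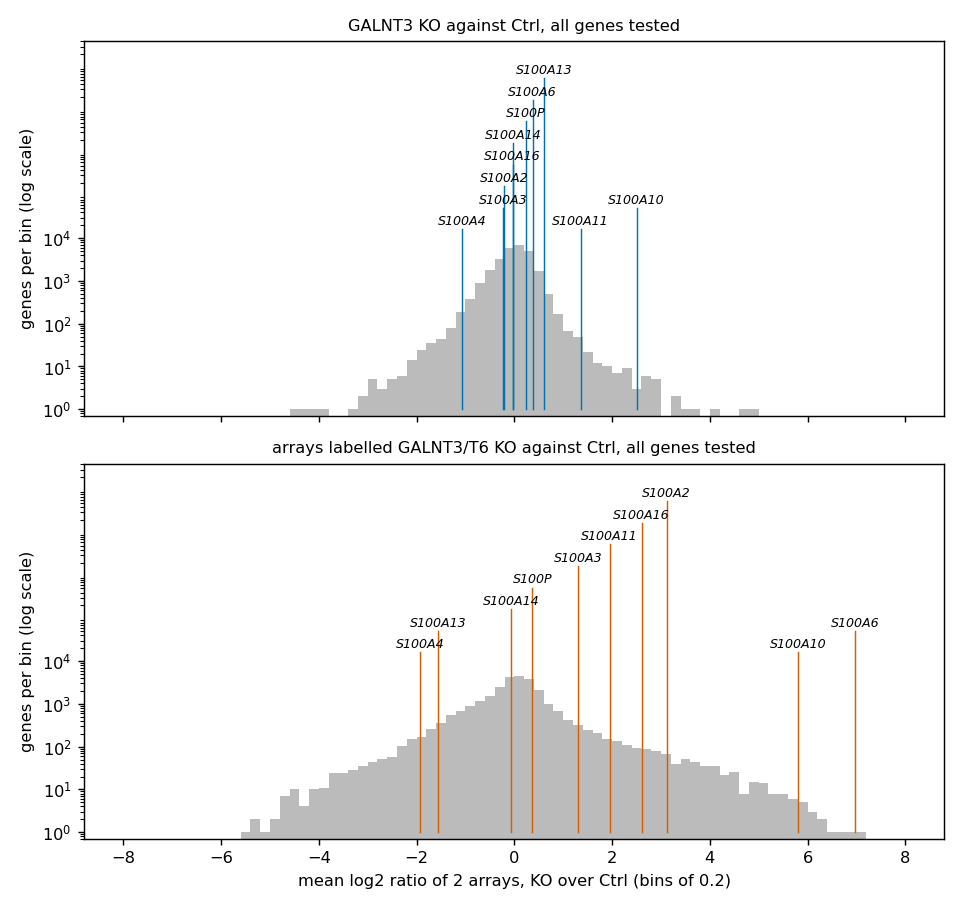
Histograms of the mean log2 ratio of all 27225 genes tested (bins of 0.2, log scale of gene counts) in GALNT3 KO and on the GALNT3/T6-labelled arrays, with a line at each S100 member (line heights serve the labels only). S100A10 lies in the right tail of both panels, and S100A6 only in that of the lower panel, where 1 gene lies beyond it.

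S100A2, a member often lost in carcinomas and known as a binder of p53, gave log2 ratios of -0.18 and -0.24 in GALNT3 KO and of 2.88 and 3.35 on the GALNT3/T6-labelled arrays. Its mean went from -0.21 (limma adjusted p = 0.306, not called) in the first group to 3.11, or 8.66-fold, in the second. With Agilent's own log ratio the GALNT3 KO mean turned to 0.12. Ctrl changed little for S100A2, by 0.41 on the log2 scale, while the KO channel was 3.73 brighter.

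S100A16 is a widely expressed member with atypical calcium binding. Its log2 ratios were -0.19 and 0.12 in GALNT3 KO and 2.35 and 2.85 on the GALNT3/T6-labelled arrays. The GALNT3 KO arrays lay on either side of 0, with a mean of -0.03 (limma adjusted p = 0.890), and the other group averaged 2.60, or 6.07-fold. Ctrl was 1.29 brighter on the log2 scale in the second group, and its part was not tested.

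S100A3, known from the hair cuticle, followed the same order at lower ratios. It gave -0.28 and -0.16 in GALNT3 KO and 1.23 and 1.37 on the GALNT3/T6-labelled arrays. The GALNT3 KO mean of -0.22 was not called (limma adjusted p = 0.151) and turned to 0.11 with Agilent's own log ratio, whereas the second mean was 1.30.

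S100A4, or metastasin, binds non-muscle myosin and is the member best known for cell motility. Its log2 ratios were -1.51 and -0.63 in GALNT3 KO and -1.62 and -2.23 on the GALNT3/T6-labelled arrays. All 4 lay below Ctrl, and the 2 GALNT3 KO arrays differed from each other by 0.87. Their mean of -1.07 (standard error 0.26, n = 2) was not called (limma adjusted p = 0.0648), although 98.8% of genes had a higher mean. With median centring in place of loess it was called (adjusted p = 0.0355), as it was when the spread came from the GALNT3 KO arrays alone (adjusted p = 0.00279). The second group averaged -1.93, and here Ctrl moved by only -0.02 between the groups while the KO channel moved by -0.88 on the log2 scale.

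S100A13 takes part in the non-classical release of FGF1 and IL-1 alpha. It gave log2 ratios of 0.54 and 0.70 in GALNT3 KO and of -1.35 and -1.78 on the GALNT3/T6-labelled arrays. The arrays of the groups lay on opposite sides of Ctrl. The GALNT3 KO mean of 0.62 (standard error 0.13, n = 2) had a limma adjusted p of 0.0525 and ranged from 0.14 with Agilent's own log ratio to 0.87 with median centring, where it was called (adjusted p = 0.0277). It was also called when the spread came from the GALNT3 KO arrays alone (adjusted p = 0.0024). The mean of the second group was -1.57.

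S100A14 and S100P had the smallest mean ratios of the members on the GALNT3/T6-labelled arrays. S100A14, a member of epithelial cells, lay between -0.124 and 0.00496 on the 4 arrays, with a limma adjusted p of 0.801 in GALNT3 KO. S100P, first found in placenta and known as a ligand of RAGE, gave 0.30 and 0.17 in GALNT3 KO (limma adjusted p = 0.135). On the GALNT3/T6-labelled arrays it gave 0.42 and 0.32. Its place among the 7 members called higher there was lost with Agilent's own log ratio, median centring and the replicate block, among other settings.

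Of 11 further S100 genes, 8 were tested. S100A8 and S100A9, the calprotectin subunits of myeloid cells, were not well above background in either channel of any array, and S100A7L2 was not analysed here. S100A1, a member of striated muscle and nervous tissue that lies next to S100A13, gave log2 ratios of 1.11 and 1.35 in GALNT3 KO and of -0.89 and -0.98 on the GALNT3/T6-labelled arrays. It was called higher in GALNT3 KO (mean 1.23, limma adjusted p = 0.0132) and lower on the other arrays (mean -0.94, adjusted p = 0.00231), and the groups differed by -2.16 (adjusted p = 0.00122). With Agilent's own log ratio the second mean was -1.57. Its GALNT3 KO call was lost with the replicate block (adjusted p = 0.0680), and its Ctrl signal moved by -1.17 on the log2 scale between the groups. S100A7A, or koebnerisin, was called higher in GALNT3 KO at 0.56 (limma adjusted p = 0.0317) and on the other arrays at 0.32 (adjusted p = 0.0290). Both calls were lost with Agilent's own log ratio (adjusted p = 0.123 and 0.562) and with the replicate block, and the second under further settings. S100A12, a myeloid member, stood at 0.53 on the GALNT3/T6-labelled arrays (limma adjusted p = 0.0180) and at 0.33 in GALNT3 KO (adjusted p = 0.112), and the difference between the groups was not called (adjusted p = 0.497). Its call was lost with Agilent's own log ratio and with the deposited table (0.26, adjusted p = 0.106 in each). In GALNT3 KO it was called when the spread came from the GALNT3 KO arrays alone (adjusted p = 0.0455). S100A5, S100A7, S100B, S100G and S100Z had group means between -0.14 and 0.21, none called.

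The members on chromosome 1 share a neighbourhood, which the choice of members did not use. The probes of 9 members lie between chr1:151955420 and chr1:153604335 (hg19), a stretch of 1649 kb that also holds 5 of the other S100 genes tested and 39 neighbours that are no S100 gene, mostly epidermal differentiation genes. S100A10 and S100A11 lie together at one end, at -1552 and -1502 kb from the S100A6 probe. At the other end S100A5, S100A4, S100A3 and S100A2 follow S100A6 within 26.6 kb, and S100A16, S100A14, S100A13 and S100A1 within 97.0 kb. The ratios along this order are given as a description. On the GALNT3/T6-labelled arrays the S100A6 mean was 6.97, the S100A5 mean 5.33 kb away was -0.02, the S100A4 mean 8.94 kb away was -1.93 and the S100A3 mean 12.7 kb away was 1.30.

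Of the 39 neighbours, 3 in GALNT3 KO were called higher and 0 lower, beside 4.69% and 6.34% of all genes: a transcript listed as ENST00000445179 at 0.93 (limma adjusted p = 0.0170), LCE1D at 0.61 (adjusted p = 0.0339) and LCE4A at 0.42 (adjusted p = 0.0471), the last 2 late cornified envelope genes. All 3 calls were lost with Agilent's own log ratio (adjusted p from 0.0900 to 0.215) and with the replicate block. Of the 39, 13 were called higher and 1 lower on the GALNT3/T6-labelled arrays, 33.3% and 2.56% beside 24.8% and 23.1% of all genes. In either direction the share was 35.9% beside 47.8%, and the neighbour median was 0.10. The highest was TCHH, a hair follicle protein, at 1.04, followed by ENST00000445179 at 0.97, SPRR1A at 0.70, CRCT1 at 0.64, CRNN at 0.62, IVL at 0.55 and SPRR2C at 0.50. LCE1A was the one called lower, at -0.88, and at -0.40 with the mean of all probes. Of those named, the SPRR2C call was lost with Agilent's own log ratio, median centring and the replicate block, among other settings. The CRCT1 and CRNN calls were lost only with Agilent's own log ratio and its near copy, the deposited table. The IVL call was lost when the spread came from the GALNT3/T6-labelled arrays alone and without replicate 2 of that group. No neighbour mean exceeded 1.04 in size there. S100A6 was chosen for its high ratio on these arrays, so no comparison with the members is drawn.

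**Figure D4:**
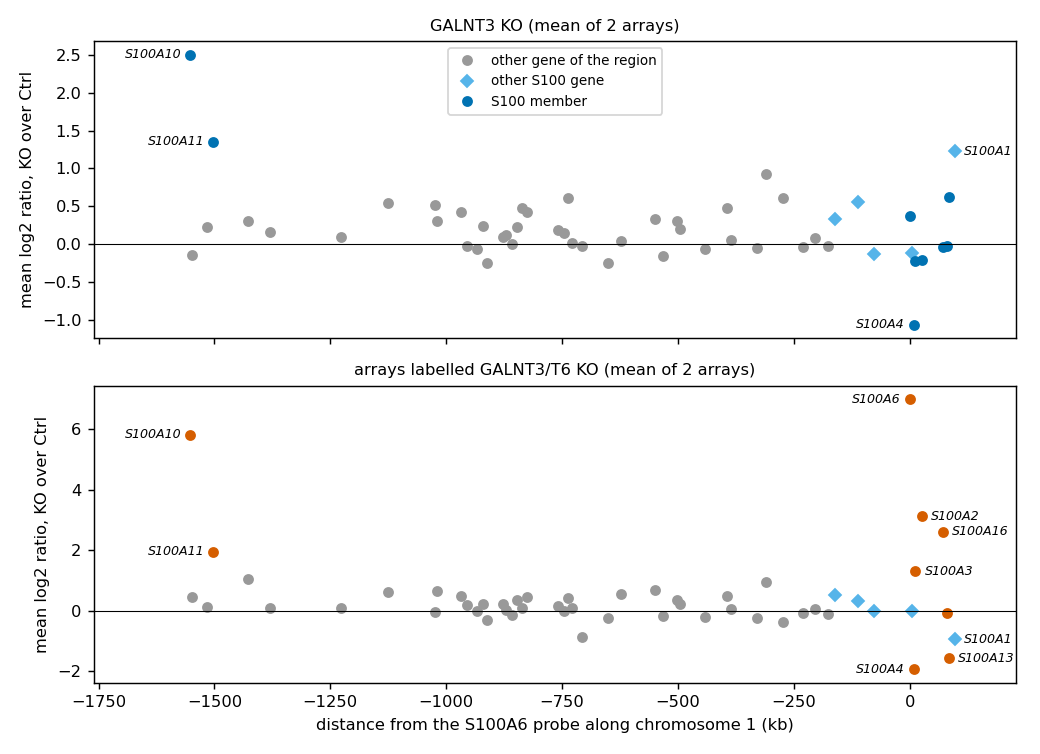
Mean log2 ratio of KO over Ctrl against distance from the S100A6 probe along chromosome 1 (kb) for 53 genes, in GALNT3 KO above and on the GALNT3/T6-labelled arrays below. Between the S100 genes at the ends, the 39 neighbours (grey) lie between -0.26 and 0.93 above and between -0.88 and 1.04 below.

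The stretches before the gene starts were examined for the members at the ends of the range. All 10 members had at least 1 start in RefSeq (GRCh38.p14), and 7 had a single one. The 250 bases before the start are given for S100A6, the highest on the GALNT3/T6-labelled arrays, for S100A10 and S100A11, the members called in GALNT3 KO, and for S100A4, the lowest member in both comparisons, in lower case with matches to 4 motifs in capitals. The motifs, searched on both strands, were the TATA box as TATAAA, the GC box as GGGCGG, the CCAAT box as CCAAT and the AP-1 site as TGACTCA. The S100A6 stretch is chr1:153535992-153536241, that of S100A10 chr1:151993860-151994109, that of S100A11 chr1:152037005-152037254 and that of S100A4 chr1:153545807-153546056, all on the minus strand.
S100A6: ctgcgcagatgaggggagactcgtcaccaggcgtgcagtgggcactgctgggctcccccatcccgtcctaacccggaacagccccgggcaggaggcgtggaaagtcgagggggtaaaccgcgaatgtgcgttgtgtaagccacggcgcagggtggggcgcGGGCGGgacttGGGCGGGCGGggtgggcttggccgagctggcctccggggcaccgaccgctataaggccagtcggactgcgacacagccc
S100A10: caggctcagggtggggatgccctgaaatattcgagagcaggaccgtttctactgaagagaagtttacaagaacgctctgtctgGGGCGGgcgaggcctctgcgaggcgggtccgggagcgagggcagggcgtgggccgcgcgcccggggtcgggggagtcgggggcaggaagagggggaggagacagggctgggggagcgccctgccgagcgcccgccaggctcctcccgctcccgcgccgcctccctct
S100A11: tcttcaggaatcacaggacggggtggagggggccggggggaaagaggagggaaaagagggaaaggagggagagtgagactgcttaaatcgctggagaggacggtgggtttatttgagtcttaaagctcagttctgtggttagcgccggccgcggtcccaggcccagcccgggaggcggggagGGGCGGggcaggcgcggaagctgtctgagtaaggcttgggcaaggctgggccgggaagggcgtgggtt
S100A4: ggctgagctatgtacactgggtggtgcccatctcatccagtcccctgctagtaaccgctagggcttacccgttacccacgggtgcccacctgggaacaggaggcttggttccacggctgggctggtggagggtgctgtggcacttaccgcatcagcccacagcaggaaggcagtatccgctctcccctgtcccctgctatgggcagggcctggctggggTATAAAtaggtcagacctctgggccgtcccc
S100A6 held 3 GC boxes, of which 2 overlap, S100A10 and S100A11 held 1 each, and none of these 3 held the TATA box letters. S100A4 held TATAAA with its first base at position -31 from the start, and no GC box. CpG dinucleotides numbered 24 in S100A6, 24 in S100A10, 15 in S100A11 and 7 in S100A4, where the median of all 35116 promoter stretches was 11. Of the other members, S100A3, S100A14 and S100P held 4 each, the starts of S100A2 3 and 4, those of S100A16 6 and 1, and those of S100A13 8, 10 and 15. Whether these counts go with the ratios was not tested. A GC box stood in 42.6% of those stretches, a TATA box in 10.7%, a CCAAT box in 32.0% and an AP-1 site in 4.20%. Over the 14 stretches of the 10 members, 6 held a GC box, 3 a TATA box, 3 a CCAAT box and 2 an AP-1 site, the AP-1 letters standing before S100A3 and before 1 start of S100A2. S100P, on chromosome 4, held a TATA box at position -28. These matches are letters in a window and describe no binding.

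Genes known to act with S100 proteins were examined as a list of 25 receptors, binding partners and export cargoes. In GALNT3 KO 1 was called higher and 3 lower, beside 4.69% and 6.34% of all genes, and the list's median was -0.11. Of the 25, 11 on the GALNT3/T6-labelled arrays were called higher and 5 lower, 64.0% of the list beside 47.8% of all genes, with a median of 0.40. The list was chosen with earlier results of these data known, so these shares are a description.

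**Figure D5:**
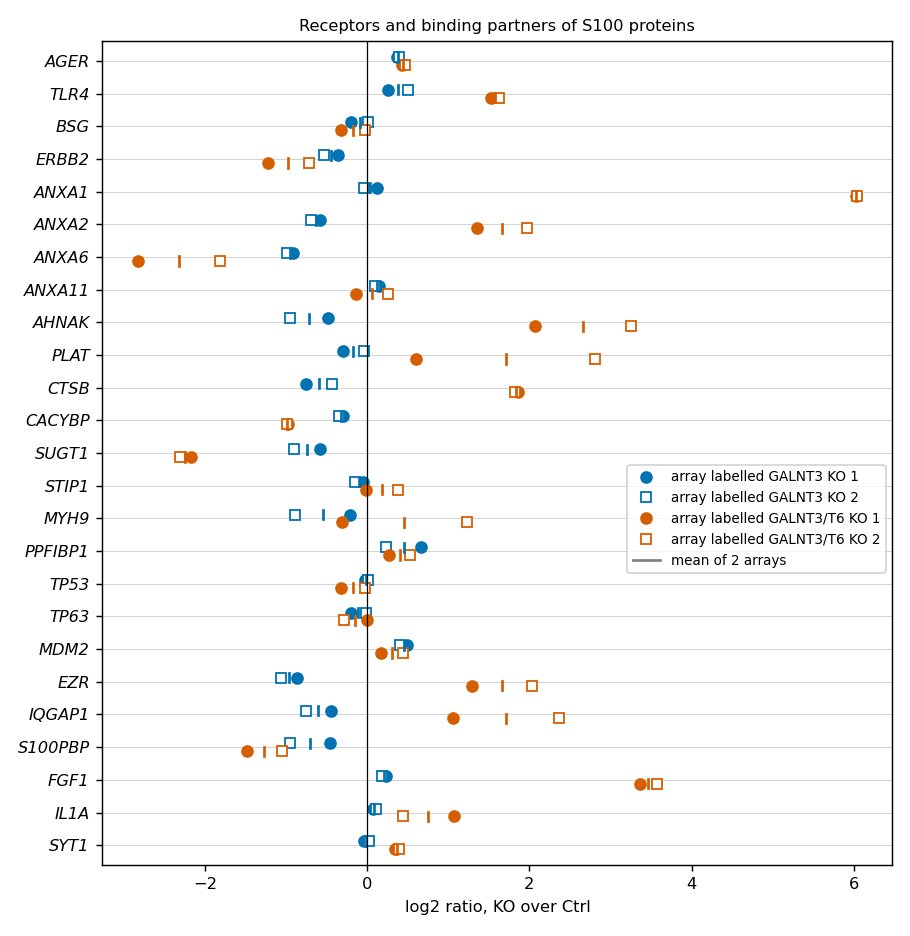
Log2 ratio of KO over Ctrl on each of the 4 arrays for 25 genes whose products bind, receive or travel with S100 proteins, with a bar at the mean of a group. ANXA1 and FGF1 lie farthest to the right on the GALNT3/T6-labelled arrays, and CTSB, EZR, AHNAK and IQGAP1 lie left of 0 in GALNT3 KO and right of it on the other arrays.

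Among the receptors, AGER gave 0.37 and 0.39 in GALNT3 KO (limma adjusted p = 0.0498) and 0.43 and 0.46 on the GALNT3/T6-labelled arrays (adjusted p = 0.0104). The first call was lost with Agilent's own log ratio and the deposited table (0.18, adjusted p = 0.273 in each). It was also lost with median centring (0.19, adjusted p = 0.307) and with the replicate block (adjusted p = 0.138). The second was lost with Agilent's own log ratio and the deposited table (0.09, adjusted p = 0.474 in each) and with median centring (0.27, adjusted p = 0.126). Of the annexins, which S100 proteins bridge to membranes, ANXA1 was at 0.12 and -0.04 in GALNT3 KO and at 6.02 and 6.03 on the other arrays, 65.2-fold (limma adjusted p = 9.22e-05). ANXA6 gave -2.82 and -1.82 on the GALNT3/T6-labelled arrays (adjusted p = 0.00235). ANXA2, the partner of S100A10 and named here after its values were seen, gave -0.58 and -0.70 in GALNT3 KO (adjusted p = 0.0721) and 1.36 and 1.97 on the other arrays (adjusted p = 0.00191). Its other probes read -0.40 and -0.37, and 0.04 and -0.03, in GALNT3 KO. On the other arrays they read 2.06 and 2.96, and 1.65 and 1.76. AHNAK, a giant scaffold recruited by the S100A10 and annexin A2 complex, gave -0.48 and -0.95 in GALNT3 KO (adjusted p = 0.171) and 2.07 and 3.26 on the other arrays (adjusted p = 0.00298). Its 5 probes disagreed in size, and the mean of all probes brought the second value from 2.66 to 1.16.

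CTSB, the lysosomal protease cathepsin B that docks on S100A10, was called lower in GALNT3 KO, at -0.76 and -0.43 (limma adjusted p = 0.0428), and higher on the GALNT3/T6-labelled arrays, at 1.85 and 1.83 (adjusted p = 0.000465). EZR, a membrane-to-actin linker that S100P activates, went from -0.86 and -1.06 (limma adjusted p = 0.0495) to 1.29 and 2.04 (adjusted p = 0.00319). The GALNT3 KO calls of both were lost with Agilent's own log ratio (adjusted p = 0.183 and 0.128), with the mean of all probes (0.187 and 0.107) and with the replicate block (0.111 and 0.114). IQGAP1, a scaffold of the cell cortex bound by S100P, gave 1.06 and 2.36 on the GALNT3/T6-labelled arrays (limma adjusted p = 0.0127). That call was lost when the spread came from these arrays alone. FGF1, the growth factor exported with S100A13, gave 0.23 and 0.18 in GALNT3 KO and 3.36 and 3.57 on the other arrays (adjusted p = 9.75e-05), where S100A13 itself was below Ctrl. With the mean of all probes the FGF1 value on those arrays went from 3.46 to 2.03, as 1 of its 3 probes read -0.00217 and 0.79 there. SUGT1, a co-chaperone bound by S100A6, was called lower in both groups, at a mean of -0.74 in GALNT3 KO (limma adjusted p = 0.0336) and of -2.24 on the other arrays (adjusted p = 0.000306). Its first call was lost with Agilent's own log ratio (adjusted p = 0.0855) and with the replicate block (0.0923).

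The 5 genes nearest to S100A6 over the 4 arrays, by Euclidean distance of the log2 ratios among 27186 genes with all 4 values, were GPX1, PODXL, ANXA3, ALDH1A3 and EFEMP1. GPX1, a glutathione peroxidase, was nearest at a distance of 0.471, with log2 ratios of 0.62 and 0.65 in GALNT3 KO and 6.86 and 7.14 on the GALNT3/T6-labelled arrays. PODXL, a sialomucin, lay at 0.702, ANXA3, another annexin, at 0.776, ALDH1A3, a retinaldehyde dehydrogenase, at 1.13 and EFEMP1, an extracellular matrix glycoprotein, at 1.34. These distances describe 4 arrays and rest mainly on the high ratios of one group.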

How the data were processed

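RNA of 2 GALNT3 KO and 2 GALNT3/T6 KO clones of A2780s cells was read on 4 Agilent whole-genome arrays against Ctrl. The authors extracted spot intensities with Agilent Feature Extraction, version 8.5.1.1 per the labels and 10.7.3.1 per the file headers. The deposited mean signals and median backgrounds are intensities on a linear scale, and the deposited series table holds log10 ratios (red over green) that differed from the scanner files' ratios by at most 0.005. Each array held 45015 spots, 1639 of them control spots. Groups came from the labels, and the replicates are clones, so that p-values measure only the spread between these clones.

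Background was corrected with normexp (offset 50), and loess within each array normalized the dyes, with control and flagged spots at weight 0. Log2 ratios were averaged per probe. A probe entered when, on both arrays of 1 group, it was well above background in 1 channel or both, and the brightest such probe stood for its gene. This left 27225 genes, 38 of them with a value missing on at least 1 array. limma 3.58.1 in R 4.3.3 fitted the 4 arrays in 1 model with a mean per group. Tests were two-sided, p-values were adjusted by Benjamini-Hochberg over all genes, and the threshold was 0.05. Channel signals were additionally normalized between arrays with Aquantile. The script was tested on simulated data.

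The members and lists were chosen with earlier results of these data known. Named were all S100 genes listed, GALNT3 and GALNT6, the partner and neighbour genes called in GALNT3 KO, up to 8 per list with the largest mean among those called on the GALNT3/T6-labelled arrays, and the 5 genes nearest to S100A6. Alternatives were no background correction, Agilent's own log ratio, the deposited table, median centring, all probes, no filter on dim probes, each array left out, the group's arrays alone, the replicate number as a block, Aquantile, and unadjusted p of at most 0.05 with 1.5-fold. Some of these repeat each other and are no separate checks. The deposited table holds nearly the same values as Agilent's own log ratio. With 1 array of a group left out, the other group's fit is that of its own arrays alone. Ctrl was a reference with no spread of its own, and the number of arrays limits the precision. A difference between the groups assumes the same Ctrl RNA on all 4 arrays, whereas the paper speaks of corresponding Ctrl clones. The paper's methods speak of reverse-colour labelling of Ctrl, whereas the labels give Cy3 to Ctrl on all 4 arrays, and the labels were followed.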

Additional observations from a re-analysis of the deposited data

Results flagged for a closer look

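Some genes stood on opposite sides of Ctrl in the 2 groups or differed between them. Differences are the mean log2 ratio on the GALNT3/T6-labelled arrays minus that in GALNT3 KO. They compare the clones only if Ctrl RNA was the same on all arrays, which was not tested. Between the groups the Ctrl log2 signal moved by -1.17 for S100A1 and 1.02 for FGF1, but by 0.06 for AHNAK and 0.22 for CTSB. Among the members, S100A2 (difference 3.33) and S100A3 (difference 1.52) lay below Ctrl on both GALNT3 KO arrays and above it on both of the others, and S100A13 (difference -2.18) the other way round. The arrays took part in choosing the family, so for these 3 members no p is given, the difference counts as not tested, and their part in the count of members called between the groups is a description. With Agilent's own log ratio the GALNT3 KO means of S100A2 and S100A3 turned to 0.12 and 0.11, so that their signs no longer opposed those of the other group.

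S100A1, next to S100A13 on chromosome 1, differed by -2.16 with opposite signs (limma adjusted p = 0.00122). Of the partner genes, AHNAK (3.38, limma adjusted p = 0.00759), CTSB (2.44, adjusted p = 0.00117), EZR (2.62, adjusted p = 0.00444) and IQGAP1 (2.31, adjusted p = 0.0251) lay below Ctrl in GALNT3 KO and above it on the other arrays, by their brightest probes. The other CTSB probes read 0.02 and 0.31, and -0.03 and -0.19, in GALNT3 KO. ANXA1 (5.99, limma adjusted p = 0.000419), FGF1 (3.26, adjusted p = 0.000468) and SUGT1 (-1.50, adjusted p = 0.00447) differed between the groups too. Of the chromosome 1 neighbours, TCHH differed by 0.73 (limma adjusted p = 0.0243) and LCE1A by -0.85 (adjusted p = 0.0313).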

How the results depend on the processing

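For the 2 members called in GALNT3 KO, median centring gave 4, the group's arrays alone 5, and unadjusted p of at most 0.05 with 1.5-fold 4. Leaving out 1 array gave 0 to 5 members. As a description only, it gave 3 to 8 members called between the groups against 6, the low value without GALNT3 KO replicate 1. Without either GALNT3 KO array 0 genes of the whole table were called in GALNT3 KO, where the lone clone was assumed to vary like the other group. Leaving out either of the other arrays raised the share of all genes called there to 34.7%.

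The 2 other S100 genes called in GALNT3 KO became 1 with Agilent's own log ratio, the deposited table and the 1.5-fold criterion, and 0 to 3 with 1 array left out. On the GALNT3/T6-labelled arrays their 3 became 1 under the same 3 settings. The 4 partner genes called in GALNT3 KO became 0 with Agilent's own log ratio and the deposited table, 2 with median centring, 15 with the group's arrays alone and 0 to 15 with 1 array left out. The 3 neighbours called there became 0, 0, 1, 13 and 0 to 13 under those settings. The 14 neighbours called on the GALNT3/T6-labelled arrays became 9 with Agilent's own log ratio, the deposited table and median centring, 8 with the group's arrays alone, 6 with the 1.5-fold criterion and 8 to 12 with 1 array left out. The members' median in GALNT3 KO, 0.10, became 0.17 with Agilent's own log ratio and the deposited table, and 0.0901 to 0.145 with 1 array left out. On the other arrays the median of 1.62 ran from 1.53 to 1.71 with 1 array left out and became 1.89 with both of these and 1.46 with median centring. The causes were not tested.

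Same-numbered arrays of the 2 groups deviated from their group means with a correlation of -0.239. With 2 arrays per group its sign follows from the numbering alone. It therefore cannot tell whether any arrays share a parent clone or a batch, which was not tested. With the replicate number as a block 1 member was called in GALNT3 KO, with 0 other S100 genes, 0 partners and 0 neighbours, against 0.301% of all genes. With the numbers crossed, chosen after seeing the data, the counts of members were 4 in GALNT3 KO, 9 on the other arrays and 7 between the groups. A slide or scan block was not run, since all 4 arrays shared 1 slide and 1 scan.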
